A study of Mus musculus with 8 samples.

Results

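Transcripts of 8 paired receptors of myeloid cells were measured: the CD300 genes Cd300lf, Cd300a, Cd300lb and Cd300ld, and Lilrb4a, Pirb, Pilra and Sirpa. The genes were chosen by name. All 8 are listed in both deposited gene tables, which together hold 15377 genes, and all 8 passed the filter on low counts in every comparison. The 8 RNA-seq libraries came from C57BL/6 mouse bone marrow grown for 7 days. They comprise 2 knockout and 2 control bone marrow-derived macrophage (BMDM) cultures in M-CSF at 10 ng/mL, and 2 knockout and 2 control bone marrow-derived dendritic cell (BMDC) cultures in GM-CSF at 20 ng/mL. Knockout mice were Lyz2-Cre;Trpv2fl/fl and control mice were Trpv2fl/fl without Cre, so both genotypes carried the floxed Trpv2 alleles. Trpv2 encodes a calcium-permeable channel, and the Lyz2 promoter drives Cre in macrophages, granulocytes and some dendritic cells. Controls had no Cre, so the Cre insertion cannot be told apart from the loss of Trpv2. Cell type, cytokine and deposited table coincide, and cannot be told apart either.

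Paired receptors are families of closely related surface proteins in which some members restrain a cell and others activate it. Inhibitory members carry tyrosine motifs in the cytoplasmic tail that recruit phosphatases such as the product of Ptpn6. Activating members have short tails and signal through adaptors such as the products of Tyrobp and Fcer1g. Not all of the 8 genes encode inhibitory receptors. Cd300lf, Cd300a, Lilrb4a, Pirb, Pilra and Sirpa encode inhibitory receptors, while Cd300lb and Cd300ld encode mouse receptors that couple to activating adaptors.

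Promoters are shown for Cd300lf and Cd300ld, the members that passed a test between BMDM and BMDC. Each sequence runs from 250 bases before to 50 bases after the gene's start, 5′ to 3′ on the gene's strand, from RefSeq on GRCm38.p6. Capitals mark matches to any of the motifs listed after the sequences.
Cd300lf (chr11:115133943-115134242, minus strand): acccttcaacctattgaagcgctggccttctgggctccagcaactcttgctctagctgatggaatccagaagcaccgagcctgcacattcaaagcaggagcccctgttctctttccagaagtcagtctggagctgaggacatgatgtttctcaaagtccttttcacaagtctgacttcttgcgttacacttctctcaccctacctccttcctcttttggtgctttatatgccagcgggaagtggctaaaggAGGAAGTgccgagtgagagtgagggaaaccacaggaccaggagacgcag
Cd300ld (chr11:114989837-114990136, minus strand): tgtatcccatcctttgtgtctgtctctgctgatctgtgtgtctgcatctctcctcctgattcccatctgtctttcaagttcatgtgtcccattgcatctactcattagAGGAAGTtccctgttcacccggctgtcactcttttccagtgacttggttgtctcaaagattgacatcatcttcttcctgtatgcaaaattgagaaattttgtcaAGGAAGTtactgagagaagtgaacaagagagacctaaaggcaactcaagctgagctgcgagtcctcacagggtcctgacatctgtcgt
The table held a promoter for 6 of the 8 genes. Motifs were searched on both strands. The PU.1 core AGGAAGT, a motif of myeloid promoters, was found 2 times in Cd300ld and 1 time each in Cd300lf, Pilra and Pirb, and 9.35% of all 32851 promoters hold it. The C/EBP motif TTGCNNAA was found in Cd300a and Pilra (10.8% of promoters), and the AP-1 motif TGANTCA (7.81%) in 0 of the 6 genes. A match describes letters only.

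Library totals were 15790185 to 19463457 counts. Trpv2 itself was at 26.4 and 29.1 CPM in BMDM knockout libraries against 273 and 277 CPM in BMDM controls. It was at 35.5 and 56.3 CPM in BMDC knockout libraries against 181 and 240 CPM in BMDC controls. Lyz2, whose promoter drives Cre, was also far lower in knockouts. It was at 242 and 273 CPM in BMDM knockout libraries against 63579 and 54948 CPM in BMDM controls. In BMDC, Lyz2 was at 103 and 202 CPM in knockout libraries against 17447 and 19752 CPM in controls. CPM here are counts relative to the library size after TMM scaling over all 8 libraries. BMDC knockout 2 stood apart: its Spearman correlation with the other BMDC libraries was 0.895 to 0.909, against 0.984 to 0.985 at best among those. Its 14 listed interferon-response markers summed to 8665 CPM, against 228 CPM in BMDC knockout 1 and 682 and 465 CPM in BMDC controls. The 11 macrophage markers summed to 11815 to 13253 CPM in BMDM and 4454 to 8425 CPM in BMDC. The 14 dendritic markers summed to 294 to 341 CPM in BMDM, where 11 are listed. In BMDC they summed to 365 and 485 CPM in controls and to 576 and 1296 CPM in knockouts, the last in BMDC knockout 2. Of 11 tested, 0 were higher and 5 lower in BMDM in knockouts, and 0 higher and 2 lower in controls. Over all genes tested, 4.64% were lower in BMDM in knockouts and 5.08% in controls. Cd209a, a marker of dendritic cells grown from monocytes, was at 0 in 3 of the 4 BMDC libraries and is not listed for BMDM.

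As deposited, Cd300a (ENSMUSG00000034652), Cd300lb (ENSMUSG00000063193), Cd300ld (ENSMUSG00000034641) and Cd300lf (ENSMUSG00000047798) start at 114780867, 114813607, 114873100 and 115007040 on chromosome 11. Lilrb4a (ENSMUSG00000112148) lies on chromosome 10 from 51367052 to 51372707, and Pirb (ENSMUSG00000058818) on chromosome 7 from 3714408 to 3723390. Pilra (ENSMUSG00000046245) lies on chromosome 5 from 137820214 to 137834543, and Sirpa (ENSMUSG00000037902) on chromosome 2 from 129434755 to 129474148. These positions do not match the promoter coordinates on GRCm38.p6. The promoter of Cd300a lies there at 114889791 to 114890090, away from the deposited start at 114780867. The deposited positions are therefore not on GRCm38, and whether they are on GRCm39 was not checked.

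Sirpa led the receptors in every library. It encodes the receptor for CD47, which restrains phagocytosis. Per transcript length, as deposited FPKM, Sirpa averaged 571 ± 17.8 in BMDM knockouts and 534 ± 52.0 in BMDM controls (SD, n = 2 each). It averaged 347 ± 124 FPKM in BMDC knockouts and 413 ± 41.2 FPKM in BMDC controls (SD, n = 2 each). Sirpa made up 41.6% to 63.4% of the summed FPKM of the 8 genes. Pirb, whose product binds MHC class I, was next in BMDM, at 108 ± 7.79 FPKM in knockouts and 110 ± 0.524 FPKM in controls. In BMDC controls Pilra, Pirb and Cd300lf followed Sirpa at 71.4 ± 42.0, 61.6 ± 1.86 and 60.4 ± 13.6 FPKM, and these 3 neighbours in the order did not differ beyond their spread. Cd300lf was last in BMDM, at 0.353 ± 0.0123 FPKM in knockouts and 0.366 ± 0.188 FPKM in controls, and Cd300ld had the lowest mean in BMDC, at 32.0 ± 8.77 FPKM in knockouts and 32.8 ± 6.49 FPKM in controls. Cd300lb, next to it at 32.7 ± 12.4 FPKM in BMDC knockouts and 42.9 ± 20.7 FPKM in BMDC controls, did not differ from it beyond their spread. FPKM were scaled by each library's own total, without TMM, so levels set across the cell types use CPM below.

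**Figure D1:**
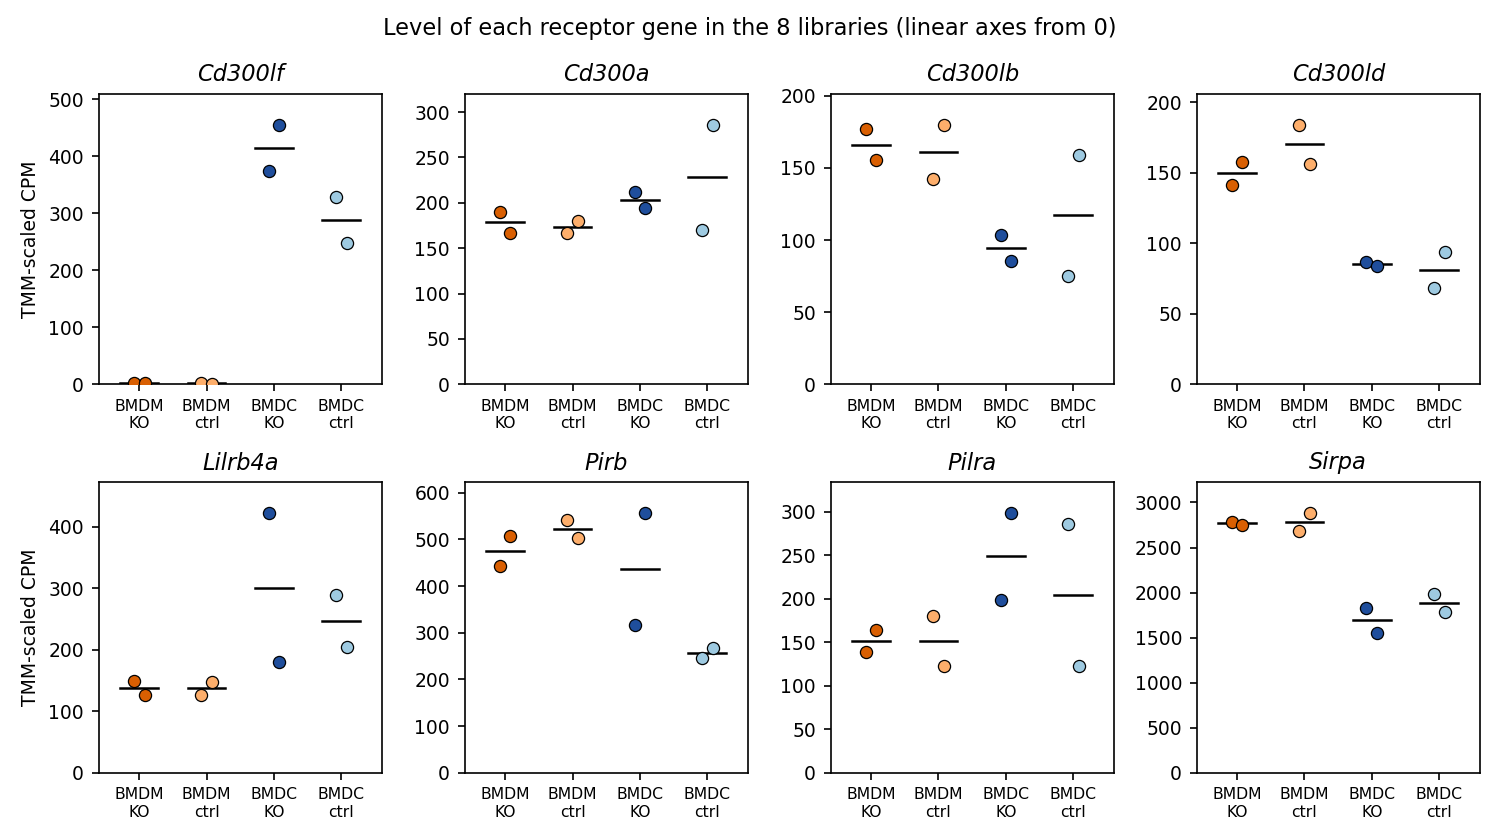
TMM-scaled CPM of each receptor gene (linear axis from 0) by group; each point is 1 library and each bar the mean of 2. Cd300lf was at 1.23 to 2.83 CPM in the BMDM libraries and at 248 to 456 CPM in the BMDC libraries.

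The inhibitory receptor gene Cd300lf separated the cell types most among the 8. Its product binds phospholipids exposed on dying cells, and in mice it is the entry receptor for murine norovirus. Cd300lf had 28 and 32 reads in BMDM knockouts against 7476 and 6542 reads in BMDC knockouts, and 41 and 19 reads in BMDM controls against 6083 and 5093 reads in BMDC controls. In CPM these were 1.72 and 1.87 in BMDM knockouts against 375 and 456 in BMDC knockouts, and 2.83 and 1.23 in BMDM controls against 329 and 248 in BMDC controls. Every BMDM library was below every BMDC library. Cd300lf was 230-fold lower in BMDM than in BMDC among knockouts (95% interval 108 to 493) and 142-fold lower among controls (67.8 to 298). The log2 fold changes were -7.85 ± 0.47 (SE, edgeR adjusted p = 0.000533) in knockouts and -7.15 ± 0.46 (SE, edgeR adjusted p = 0.000672) in controls. The test was passed in both genotypes under each of the 18 alternatives run. In bulk cultures, fewer cells of a type and less RNA per cell cannot be told apart.

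The sum of the neutrophil markers, like Cd300lf, was lower in BMDM than in BMDC. The 11 neutrophil markers summed to 66.5 to 88.1 CPM in BMDM, where 8 are listed. In BMDC they summed to 1541 and 2340 CPM in controls and to 2226 and 1902 CPM in knockouts. Within BMDC this order was not that of Cd300lf. Of 8 neutrophil markers tested, 0 were higher and 1 lower in BMDM in knockouts, and 0 higher and 2 lower in controls. Over all genes tested, 4.64% were lower in BMDM in knockouts and 5.08% in controls. S100a9 was at 0 in 3 of the 4 BMDM libraries, and the granule genes Ltf and Ngp were at 0 in 3 each. Ly6g and Retnlg were at 0 in BMDC control 1 and BMDC knockout 1, and Elane and Mpo in BMDC control 1. Markers of mast cells, basophils and eosinophils also had lower sums in BMDM, at 1.17 to 1.59 CPM against 8.01 to 47.9 CPM in BMDC. Of 5 tested, 0 were higher and 2 lower in BMDM in knockouts, and 0 higher and 1 lower in controls. The 3 genes nearest to Cd300lf across the 8 libraries were Upp1, Wfdc21 and Lcn2, with a root-mean-square difference of centred log2(CPM + 1) of 0.31, 0.32 and 0.42, among 10581 genes. Lcn2, which encodes a neutrophil granule protein also made by macrophages, averaged 11.8 CPM in BMDM and 1139 CPM in BMDC. The part of neutrophils in the Cd300lf difference was not tested. Rab37 overlaps Cd300lf on the other strand and had 1 to 11 reads in BMDM and 74 to 102 reads in BMDC. The strand setting behind these counts was not stated, so reads of the pair may be mixed. Cd300lf lies, as deposited, on chromosome 11, 115007040 to 115024818, minus strand.

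Cd300ld, which encodes an activating CD300 receptor, was higher in BMDM. It was at 142 and 158 CPM in BMDM knockouts against 86.5 and 83.6 CPM in BMDC knockouts, and at 184 and 156 CPM in BMDM controls against 68.1 and 93.6 CPM in BMDC controls. The cell types did not overlap in either genotype. The difference passed the test in controls, at log2 1.07 ± 0.24 (SE, edgeR adjusted p = 0.0322), and not in knockouts, at 0.82 ± 0.24 (SE, edgeR adjusted p = 0.0840). The call in controls was lost with a replicate block, in limma on log2(FPKM + 1) and log2(FPKM + 0.1), and when any one of the BMDM libraries or of the BMDC controls was left out (adjusted p 0.0568 to 0.248). In knockouts it passed in DESeq2 (adjusted p = 0.0277) and without either BMDC knockout, where the other BMDC knockout alone stands for the group. All groups share an estimate of spread in the fits between cell types. Leaving out a BMDC knockout therefore also changes the p-values of contrasts of controls, here and below.

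Of the 8 genes, 1 passed in knockouts and 2 passed in controls. Among all 11671 genes tested, 8.02% passed in knockouts (3.38% higher and 4.64% lower in BMDM) and 9.75% passed in controls (4.67% higher and 5.08% lower in BMDM). BMDM and BMDC values did not overlap for 7 of the 8 genes in knockouts, where 44.8% of all genes did not overlap, and for 5 of the 8 in controls, where 74.0% did not. The median log2 fold change of the 8 was -0.03 in knockouts and 0.03 in controls, beside -0.09 and -0.02 over all genes tested.

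Lilrb4a encodes an inhibitory receptor that binds integrins and fibronectin. It was at 150 and 127 CPM in BMDM knockouts against 422 and 180 CPM in BMDC knockouts, and at 127 and 148 CPM in BMDM controls against 290 and 205 CPM in BMDC controls. The BMDM values lay below the BMDC values in both genotypes. The log2 fold changes were -1.12 ± 0.40 in knockouts (SE, edgeR adjusted p = 0.148) and -0.85 ± 0.40 in controls (SE, edgeR adjusted p = 0.207), and neither passed. The knockout value was -0.36 without BMDC knockout 1 and -1.61 without BMDC knockout 2, each with the other BMDC knockout alone. It was -1.18 with the length trend removed (edgeR adjusted p = 0.0453). In controls the gene passed in a fit of the 4 libraries alone (edgeR adjusted p = 0.0212). It also passed there without either BMDC knockout, which is outside that contrast but shares its spread.

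Pirb, the gene of the MHC class I receptor, was higher in BMDM controls than in BMDC controls in both libraries, but did not pass. It was at 443 and 507 CPM in BMDM knockouts against 316 and 556 CPM in BMDC knockouts, and at 542 and 503 CPM in BMDM controls against 246 and 266 CPM in BMDC controls. The cell types overlapped in knockouts, because BMDC knockout 2 was the highest of the 8 libraries, and did not overlap in controls. The log2 fold changes were 0.12 ± 0.30 in knockouts (SE, edgeR adjusted p = 0.853) and 1.03 ± 0.30 in controls (SE, edgeR adjusted p = 0.0724). The value in controls passed in DESeq2 (adjusted p = 0.0151) and in a fit of the 4 libraries alone (edgeR adjusted p = 0.00537). It passed with limma on FPKM at a pseudocount of 1 (adjusted p = 0.0321) or 0.1 (adjusted p = 0.0330). It also passed without either BMDC knockout, which is outside that contrast but shares its spread. The sign in knockouts was not stable. The value was -0.20 without BMDC knockout 1 and 0.59 without BMDC knockout 2, each with the other BMDC knockout alone. With the length trend removed it was -0.09 (edgeR adjusted p = 0.914).

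Sirpa was at 2784 and 2751 CPM in BMDM knockouts against 1826 and 1557 CPM in BMDC knockouts, and at 2689 and 2882 CPM in BMDM controls against 1984 and 1788 CPM in BMDC controls. All BMDM values lay above all BMDC values, at log2 0.71 ± 0.24 in knockouts (SE, edgeR adjusted p = 0.132) and 0.56 ± 0.24 in controls (SE, edgeR adjusted p = 0.175). Neither passed with all libraries. Sirpa passed in knockouts in DESeq2 (adjusted p = 0.0131) and without BMDC knockout 1, where BMDC knockout 2 alone stands for the group. In controls it passed without either BMDC knockout, which is outside that contrast but shares its spread. Cd300a, Cd300lb and Pilra did not pass either. Cd300a, whose product binds aminophospholipids, had log2 fold changes of -0.18 (95% interval -0.84 to 0.47) in knockouts and -0.39 (-1.05 to 0.26) in controls. Cd300lb, an activating receptor gene, had 0.82 (-0.02 to 1.65) in knockouts and 0.46 (-0.37 to 1.29) in controls, the last being 0.03 without BMDC control 1 and 1.11 without BMDC control 2. Pilra, whose product binds sialylated glycoproteins, had -0.72 (-1.71 to 0.27) in knockouts and -0.43 (-1.42 to 0.56) in controls. In controls the sign turned for Cd300a without BMDC control 2 (0.04) and for Pilra without BMDC control 1 (0.33). Zcwpw1 overlaps Pilra on the other strand and had 20 to 45 reads a library.

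Across the 8 libraries, Cd300ld and Sirpa had the most similar patterns among the members, with a root-mean-square difference of centred log2(CPM + 1) of 0.26, followed by Cd300lb and Cd300ld at 0.30. Cd300lf differed from every other member by 3.04 or more. Among 10581 genes, the nearest outside the 8 were Vcp for Sirpa (0.066), Ubald1 for Pirb (0.056), Irf2bp2 for Cd300a (0.083), Plekhh3 for Cd300ld (0.10), Gatm for Cd300lb (0.13), Fpr2 for Pilra (0.15) and Nfat5 for Lilrb4a (0.16). The points share library and depth, and a flat gene is near many others.

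**Figure D2:**
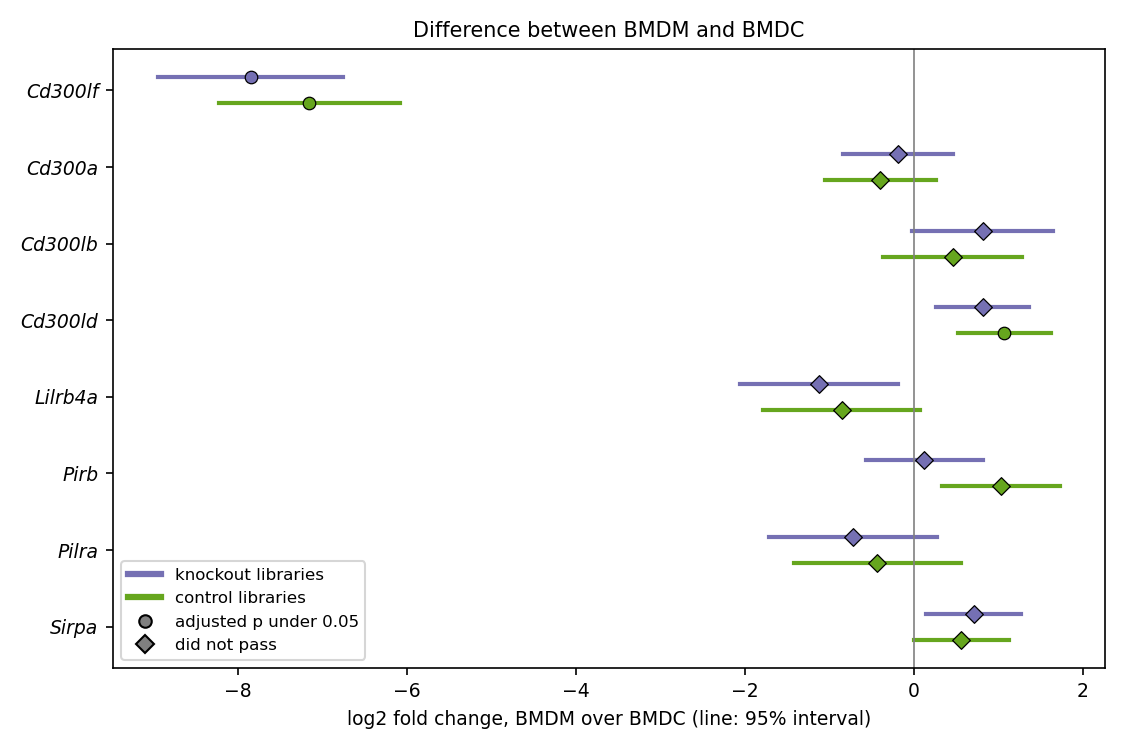
Log2 fold change of BMDM over BMDC for each receptor gene in knockout and control libraries, with 95% intervals. Circles passed an adjusted p of 0.05 and diamonds did not; Cd300lf lies at -7.85 in knockouts and -7.15 in controls.

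Knockout of Trpv2 moved none of the 8 genes past the test in BMDM. Among all 11024 genes tested, 0.109% passed. The 8 log2 fold changes of knockout over control lay between -0.19 for Cd300ld and 0.04 for Cd300lb, each with an edgeR adjusted p of 1.00. All 8 genes overlapped between the genotypes, while 26.8% of all genes did not. The 95% intervals of the 7 genes other than Cd300lf lay within -0.51 and 0.37. For Cd300lf, with its few reads in BMDM, the interval was -1.11 to 0.78.

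In BMDC, 0 of the 8 genes passed in edgeR, as did 0.0% of the 11357 genes tested, with 128 of them at an unadjusted p under 0.05. DESeq2 called 3 genes there, none of them among the 8. Pirb was at 316 and 556 CPM in BMDC knockouts against 246 and 266 CPM in BMDC controls. Cd300lf was at 375 and 456 CPM in BMDC knockouts against 329 and 248 CPM in BMDC controls. Both genes had all knockout values above all control values, and 25.7% of all genes had no overlap in one direction or the other. The log2 fold changes were 0.77 ± 0.43 for Pirb and 0.53 ± 0.39 for Cd300lf (SE, edgeR adjusted p = 0.972 each). Pirb passed with BMDC knockout 1 left out, at 1.09 (edgeR adjusted p = 0.0242), a fit in which BMDC knockout 2 alone stands for the knockout and 3215 genes passed. With BMDC knockout 2 left out it was 0.32 (edgeR adjusted p = 0.999).

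The other 6 genes overlapped between the genotypes in BMDC. Their log2 fold changes were 0.29 for Lilrb4a, 0.28 for Pilra, 0.08 for Cd300ld, -0.15 for Sirpa, -0.16 for Cd300a and -0.30 for Cd300lb. The 95% interval for Lilrb4a, -0.99 to 1.58, shows how wide these estimates were with 2 libraries a group. The knockout effect in BMDM minus that in BMDC passed for 0 of the 8 genes in edgeR and for 0.0% of 11671 genes, with 225 at an unadjusted p under 0.05 and 0 in DESeq2. Pirb had the lowest p of the 8, at -0.90 ± 0.42 (SE, edgeR adjusted p = 0.841). Without BMDC knockout 2 it was -0.44 (edgeR adjusted p = 1.00). Without BMDC knockout 1 it was -1.25 (edgeR adjusted p = 0.00752), a fit in which BMDC knockout 2 alone stands for the BMDC knockouts and 3733 genes passed.

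**Figure D3:**
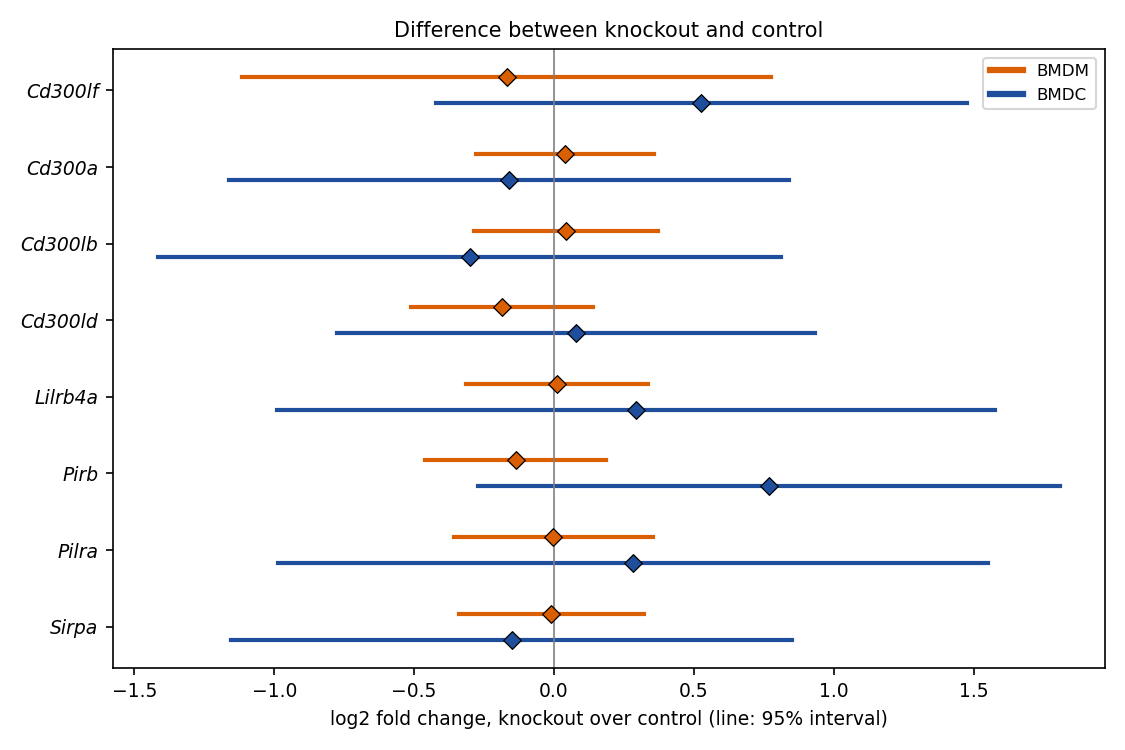
Log2 fold change of knockout over control for each receptor gene in BMDM and BMDC, with 95% intervals. None passed an adjusted p of 0.05; Pirb in BMDC lies at 0.77 and the BMDM values lie between -0.19 and 0.04.

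In the authors' deposited table, the 8 genes had an adjusted p of 1 in both knockout comparisons, with a log2 fold change of 0.76 for Pirb in BMDC.

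Of the CD300 genes listed on chromosome 11, 11 lie within 244 kb, and Cd300lf is at the end of the run. Of the 8 CD300 genes that are not members, 5 were tested between cell types, and 1 passed in each genotype. Over all genes tested, 8.02% passed in knockouts and 9.75% in controls. Cd300ld4 had 27 and 26 reads in BMDM knockouts against 2 and 2 reads in BMDC knockouts, and 25 and 35 reads in BMDM controls against 4 and 6 reads in BMDC controls. It was higher in BMDM, at log2 3.68 ± 0.64 in knockouts (SE, edgeR adjusted p = 0.0145) and 2.93 ± 0.57 in controls (SE, edgeR adjusted p = 0.0201). The call in knockouts was lost without either BMDM knockout and in a fit of the 4 libraries alone. The call in controls was lost without any one of the BMDM libraries or of the BMDC controls. Cd300e was at 42.1 and 44.9 CPM in BMDM knockouts against 4.66 and 1.39 CPM in BMDC knockouts, at log2 3.82 ± 1.04 (SE, edgeR adjusted p = 0.0683). It was at 58.3 and 28.8 CPM in BMDM controls against 15.3 and 1.41 CPM in BMDC controls, at log2 2.39 ± 0.96 (SE, edgeR adjusted p = 0.154). Neither passed with all libraries. In knockouts Cd300e passed in DESeq2 (adjusted p = 0.000130) and with a replicate block (edgeR adjusted p = 0.0329). It also passed there without any one of the 4 BMDC libraries, fits that leave a BMDC group with a single library. In controls it passed in DESeq2 (adjusted p = 0.0287) and without BMDC control 1, where BMDC control 2 alone stands for the group. It also passed in controls without either BMDC knockout, which is outside that contrast but shares its spread. Cd300c2 was at 225 to 545 CPM over the 8 libraries, at log2 0.07 ± 0.39 in knockouts (SE, edgeR adjusted p = 0.946) and 0.68 ± 0.39 in controls (SE, edgeR adjusted p = 0.288). In knockouts the value was -0.41 without BMDC knockout 1 and 0.84 without BMDC knockout 2, each with the other BMDC knockout alone. In controls Cd300c2 passed in the 4 libraries alone (edgeR adjusted p = 0.0293) and, through the shared spread, without either BMDC knockout. Among these neighbours, in controls, Cd300ld and Cd300ld4 were higher and Cd300lf was lower in BMDM.

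**Figure D4:**
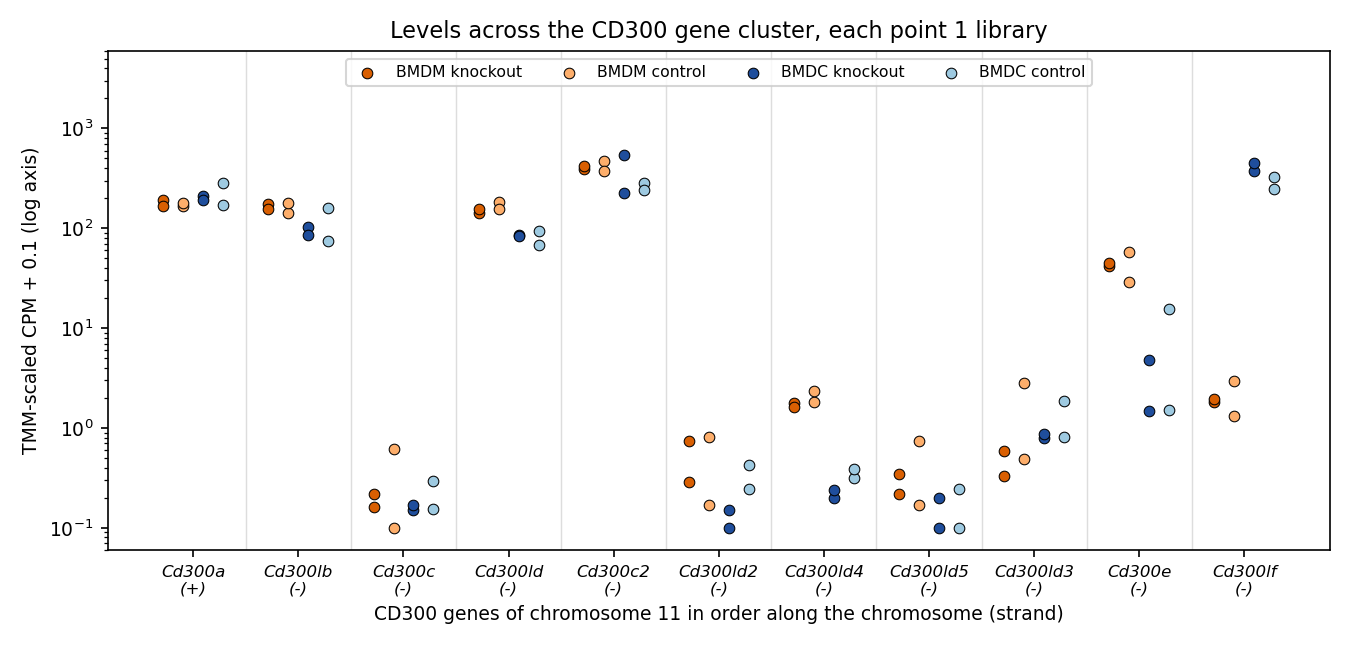
TMM-scaled CPM + 0.1 (log axis) of the 11 clustered CD300 genes in chromosome order, each point 1 library. Cd300lf is at 248 to 456 CPM in BMDC and 1.23 to 2.83 CPM in BMDM, and Cd300e at 1.39 to 15.3 CPM in BMDC and 28.8 to 58.3 CPM in BMDM.

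Several members have activating or close counterparts, which were singled out after their values were seen. Sirpb1b and Sirpb1c, of the Sirpa family, were lower in BMDM. Sirpb1b differed by log2 -2.47 ± 0.31 in knockouts (SE, edgeR adjusted p = 0.00442) and by -1.86 ± 0.31 in controls (SE, edgeR adjusted p = 0.0110). Sirpb1c was at 15.1 and 13.0 CPM in BMDM knockouts against 47.0 and 79.9 CPM in BMDC knockouts, and at 16.8 and 13.7 CPM in BMDM controls against 33.2 and 49.7 CPM in BMDC controls. Its log2 fold change was -2.17 ± 0.34 in knockouts (SE, edgeR adjusted p = 0.0102) and -1.44 ± 0.33 in controls (SE, edgeR adjusted p = 0.0373), and the call in controls held in 10 of 18 alternatives. Both genes lost the call in knockouts without either BMDM knockout, and Sirpb1c also in a fit of the 4 libraries alone. In controls Sirpb1b lost it without BMDC control 2 or either BMDM control. Sirpb1c lost it there with the length trend removed, with a replicate block, and without any one of the BMDM libraries or of the BMDC controls. The FPKM of Sirpa was 138 and 158 times that of Sirpb1c in BMDM knockouts, against 29.1 and 14.6 times in BMDC knockouts. The ratio was 120 and 158 in BMDM controls, against 44.8 and 26.9 in BMDC controls. Sirpb1a, of the same family, passed only in knockouts, at log2 -1.74 ± 0.36 (SE, edgeR adjusted p = 0.0255), held in 11 of 18 alternatives. In controls Sirpb1a was at -0.71 ± 0.35 (SE, edgeR adjusted p = 0.223) and passed in 0 of 18 alternatives.

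Lilr4b, also called Lilrb4b or gp49A, lacks the inhibitory motif and lies beside Lilrb4a. It was at 468 and 476 CPM in BMDM knockouts against 1049 and 1562 CPM in BMDC knockouts, at log2 -1.47 ± 0.28 (SE, edgeR adjusted p = 0.0194), and the call was lost without any one of the BMDM libraries and in a fit of the 4 libraries alone. It was at 502 and 555 CPM in BMDM controls against 740 and 591 CPM in BMDC controls, at log2 -0.33 ± 0.27 (SE, edgeR adjusted p = 0.435), which did not pass in any of the 18 alternatives. The FPKM ratio of Lilrb4a to Lilr4b was 0.419 and 0.120 in BMDC knockouts, against 0.407 and 0.360 in BMDC controls. BMDC knockout 2 had the lowest ratio of the 8 libraries. The ratio of Pirb to its activating relative Pira2 was 12.7 and 41.2 in BMDC knockouts, against 12.0 and 9.85 in BMDC controls, and BMDC knockout 2 had the highest of the 8 libraries. The ratio of Pilra to Pilrb1 was 3.01 to 3.81 in BMDM, inside its range of 2.30 to 4.19 in BMDC. The ratio of Pilra to Pilrb2 was 2.70 to 3.04 in BMDM, inside its range of 2.04 to 3.56 in BMDC. Near-identical relatives can share reads, so the split between such genes is uncertain.

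Among all genes tested, 3.38% were higher and 4.64% lower in BMDM in knockouts, and 4.67% higher and 5.08% lower in controls. Of 17 genes tested from the list of other inhibitory receptors, which also holds Lilr4b, 3 were higher and 5 lower in BMDM in knockouts, and 4 higher and 3 lower in controls. Fcgr2b, the inhibitory Fc receptor, was lower in BMDM at log2 -3.33 ± 0.30 in knockouts (SE, edgeR adjusted p = 0.00138) and -2.79 ± 0.30 in controls (SE, edgeR adjusted p = 0.00215). Cd72 was higher in BMDM at 3.68 ± 0.69 in knockouts (SE, edgeR adjusted p = 0.0192) and 6.09 ± 0.78 in controls (SE, edgeR adjusted p = 0.00448), and its call in knockouts was lost without either BMDM knockout. Of 24 activating partners, 0 were higher and 8 lower in BMDM in knockouts, and 1 was higher and 6 lower in controls. Clec4n, which encodes the fungal receptor dectin-2, was lower at -2.96 ± 0.29 in knockouts (SE, edgeR adjusted p = 0.00175) and -2.95 ± 0.29 in controls (SE, edgeR adjusted p = 0.00194).

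Of 27 signalling genes, 1 was higher and 0 were lower in BMDM in knockouts, and 2 were higher and 0 lower in controls. Of 16 ligand genes, 4 were higher and 2 lower in knockouts, and 5 higher and 2 lower in controls. Fn1, which encodes fibronectin, a ligand of Lilrb4a, had 1 and 2 reads in BMDM knockouts against 8164 and 4230 reads in BMDC knockouts, and 1 and 2 reads in BMDM controls against 2322 and 6621 reads in BMDC controls. Thbs1, which encodes thrombospondin, was lower in BMDM at -7.97 ± 0.74 in knockouts (SE, edgeR adjusted p = 0.00144) and -7.96 ± 0.74 in controls (SE, edgeR adjusted p = 0.00162). In the knockout comparisons 0 genes of the 5 pathway lists passed in edgeR, in either cell type. Over all genes tested, 0.109% passed there in BMDM and 0.0% in BMDC.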

How the data were processed

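Messenger RNA of 8 cultures was sequenced from stranded libraries, reads were trimmed with cutadapt and counted per gene with HTSeq, per the labels' protocols. Versions, aligner and strand setting: not given in the sources used here. GRCm38 and GRCm39 both appear in the submitters' processing notes. Gene positions are as deposited and do not match GRCm38. The deposited counts are raw reads per gene, in 1 table for each cell type (14755 genes for BMDC, 14311 for BMDM, 13689 in both). The deposited FPKM equal counts scaled by listed gene length and by the library's total in its table. The authors also deposited a mean signal of scaled counts, a knockout to control ratio, its log2 value and p-values, with no tool named.

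Counts were tested by edgeR 4.0.16 quasi-likelihood in R 4.3.3 (TMM, filterByExpr at 10 counts, Benjamini-Hochberg adjustment over all genes, threshold 0.05). Knockouts were set against controls separately in BMDM and in BMDC. A joint fit over genes in both tables compared BMDM with BMDC and the 2 knockout effects. All groups share an estimate of spread in that fit. SE and 95% intervals come from these fits. On simulated data the fits were checked for changed genes recovered, false calls and size of fold changes. The SE and intervals were not checked there. Alternatives used DESeq2 1.42.0, limma 3.58.1, other filters, FPKM with pseudocounts of 1 and 0.1, a gene-length correction, a replicate block and leaving out each library. Each group has 2 libraries, from separate mice per the labels; whether 1 mouse gave both cell types was not stated. Counting floors are 3 reads a library.

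The members, gene lists (12 lists, 163 of 178 entries matched) and tests were chosen with earlier results of these data known. Named genes are the 8 members, up to 4 genes of a pathway list past the threshold with the smallest p (otherwise up to 2), the 3 nearest genes by likeness, and counterparts of members. Not every gene the rule names is reported.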

Additional observations from a re-analysis of the deposited data

How the results depend on the processing

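Limits: with 2 libraries a group, single libraries decide many counts, and reads at 1 to 3 a library set the depth limit for low genes. Cd300lf between cell types kept its direction and call in all 18 alternatives, with log2 values of -8.06 to -5.87 in knockouts and -7.86 to -5.48 in controls. Of 664 single-gene values of the 8 members under an alternative, 588 kept direction and side of the threshold. Most belong to results that did not pass with all libraries, so keeping the side there meant not passing again. Cd300ld between cell types in controls kept its call in 9 of 18 alternatives.

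Genes called in BMDM knockouts numbered 12, against 2 in the joint fit. In BMDC they numbered 0, against 3 in DESeq2, 1 without a filter, 1 in the joint fit and 2 with the replicate block. Between cell types, 936 genes in knockouts became 1617 in DESeq2 and 281 in a fit of the 4 libraries alone, and 1138 in controls became 2140 and 4311. Members called in knockouts were 1, against 3 in DESeq2 and 2 with the length trend removed. In controls they were 2, against 1 with the replicate block and 4 in the 4 libraries alone. The correlation of same-numbered deviations was -0.24 in BMDM and -0.0015 in BMDC, which cannot show whether the numbers pair the libraries. The crossed pairing, added after seeing the data, called 29 genes in BMDM. Leaving out 1 library gave 11 to 34 genes in BMDM, 0 to 3215 in BMDC, 130 to 3866 between cell types in knockouts, 218 to 4877 in controls and 0 to 3733 for the difference of effects; members called were 0 to 0, 0 to 1, 1 to 4, 1 to 5 and 0 to 1. Outside BMDM, the highest counts of genes came without BMDC knockout 1, with similar counts between cell types without BMDC knockout 2.

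Signs turned for log2 values between -0.69 and 0.36, and the cause was not tested.
In BMDM knockout over control, Cd300lf (-0.17) gave 0.022 with log2(FPKM + 0.1), -0.65 to 0.56 leaving out 1 library. Cd300a (0.041) gave -0.079 with the length trend removed, -0.048 to 0.12 leaving out 1 library. Cd300lb (0.044) gave -0.037 with the length trend removed, -0.10 to 0.23 leaving out 1 library. Lilrb4a (0.012) gave -0.12 with the length trend removed, -0.10 to 0.13 leaving out 1 library. Pilra (-0.0019) gave 0.0015 with DESeq2, 0.00064 with DESeq2 size factors, 0.021 with limma-voom, 0.13 with log2(FPKM + 1), 0.13 with log2(FPKM + 0.1), 0.020 with the replicate block, 0.019 with the crossed pairing, -0.25 to 0.32 leaving out 1 library. Sirpa (-0.0088) gave 0.10 with log2(FPKM + 1), 0.10 with log2(FPKM + 0.1), -0.041 to 0.047 leaving out 1 library. In BMDC knockout over control, Cd300a (-0.16) gave -0.49 to 0.25 leaving out 1 library. Cd300lb (-0.30) gave -0.74 to 0.32 leaving out 1 library. Cd300ld (0.079) gave -0.046 with log2(FPKM + 1), -0.048 with log2(FPKM + 0.1), -0.13 to 0.31 leaving out 1 library. Lilrb4a (0.29) gave -0.49 to 0.79 leaving out 1 library. Pilra (0.28) gave -0.21 to 1.03 leaving out 1 library. Sirpa (-0.15) gave 0.0069 with the length trend removed. For the difference of effects, Cd300lf (-0.69) gave -1.17 to 0.022 leaving out 1 library. Cd300a (0.21) gave -0.065 with the length trend removed, -0.20 to 0.55 leaving out 1 library. Cd300lb (0.36) gave -0.27 to 0.81 leaving out 1 library. Lilrb4a (-0.27) gave 0.071 with log2(FPKM + 1), 0.079 with log2(FPKM + 0.1), -0.76 to 0.48 leaving out 1 library. Pilra (-0.29) gave -1.01 to 0.21 leaving out 1 library. Sirpa (0.15) gave -0.14 with the length trend removed. Between cell types in controls, Cd300a (-0.39) gave -0.71 to 0.044 leaving out 1 library. Pilra (-0.43) gave -0.90 to 0.33 leaving out 1 library. Between cell types in knockouts, Pirb (0.12) gave -0.088 with the length trend removed, -0.20 to 0.59 leaving out 1 library. Cd300c2 (0.068) gave -0.41 to 0.84 leaving out 1 library.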
